A study of Mus musculus with 3 samples.

Results

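The genes that set which neurotransmitter a neuron makes, packs and recycles were followed in neurons of mouse embryo trunks. The 10 genes were chosen by name, as Slc17a6, Gad1, Gad2, Slc32a1, Slc6a5, Chat, Slc18a3, Slc5a7, Th and Dbh, and all 10 were found among the 33696 genes of the deposited matrices. They were read in cells with at least 4000 UMIs (molecules counted by their unique identifiers) that held at least 2 UMIs of Elavl3 and Stmn2 together, a pair of genes of young neurons. The study sampled trunks from the third cervical to the second thoracic segment, cleared of forelimbs and thoracic organs, at the embryonic stages E11.5, E12.5 and E13.5. Each stage was 1 library of cells pooled from 3 littermates, dissociated with TrypLE Express and run on the 10x Genomics 3' kit, version 3.1. The sources used here give no strain, genotype or sex. With 1 library per stage there was no replicate spread and no test: a difference between stages cannot be told apart from a difference between the pools or preparations. Intervals are exact 95% intervals that cover counting error only. A change was called by size, at 2-fold or more with at least 20 UMIs over the 2 groups compared.

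A neuron's transmitter follows from a few enzymes and transporters. Slc17a6 encodes a vesicular transporter that loads glutamate, the main fast excitatory transmitter. Gad1 and Gad2 encode the enzymes that make GABA from glutamate, Slc32a1 the vesicular transporter that loads both GABA and glycine, and Slc6a5 the transporter that takes glycine back into glycinergic terminals. Chat makes acetylcholine, Slc18a3 loads it into vesicles and Slc5a7 takes up choline for its synthesis. Th carries out the rate-limiting step of catecholamine synthesis, and Dbh turns dopamine into noradrenaline. In the embryonic spinal cord and ganglia each postmitotic neuron class carries its own set of transcription factors, which are known to select these genes.

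The RefSeq promoter table (GRCm38.p6) held 12 start sites for the 10 genes. These promoters were searched for 3 short motifs in the 250 bases before each start, on both strands. The 3 promoters below are shown because they carry letters of the elements named with them. Capitals mark the match, and each sequence runs 5' to 3' on the gene's own strand. In the Gad2 promoter (chr2:22622077-22622326, plus strand) the capitals mark GCACC, 2 bases of any kind and then GGACAG, letters from the core of RE1, the element bound by the neuronal gene repressor REST. In the Th promoter (chr7:142899996-142900245, minus strand) they mark TGACGTCA, the cyclic AMP response element, which reads the same on both strands. In the Dbh promoter (chr2:27165257-27165506, plus strand) they mark TAAT on the opposite strand, read here as ATTA, the core letters bound by many homeodomain factors.
Gad2: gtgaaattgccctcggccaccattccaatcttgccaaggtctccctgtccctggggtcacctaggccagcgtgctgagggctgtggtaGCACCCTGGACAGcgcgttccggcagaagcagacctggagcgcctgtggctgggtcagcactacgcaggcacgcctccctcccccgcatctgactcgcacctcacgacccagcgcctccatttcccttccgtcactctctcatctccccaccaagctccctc
Th: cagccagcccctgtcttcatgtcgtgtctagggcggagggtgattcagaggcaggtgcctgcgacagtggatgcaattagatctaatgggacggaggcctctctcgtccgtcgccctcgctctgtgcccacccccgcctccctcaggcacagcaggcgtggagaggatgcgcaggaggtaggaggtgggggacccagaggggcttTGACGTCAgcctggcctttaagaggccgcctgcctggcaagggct
Dbh: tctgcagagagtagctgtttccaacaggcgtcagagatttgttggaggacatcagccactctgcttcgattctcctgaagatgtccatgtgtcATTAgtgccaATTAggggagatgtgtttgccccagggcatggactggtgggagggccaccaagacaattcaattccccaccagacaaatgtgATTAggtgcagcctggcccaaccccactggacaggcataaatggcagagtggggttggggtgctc
The RE1 core lay 162 to 150 bases before the Gad2 start, and these letters were in the promoter of 1 of the 10 genes and in 25 of all 32851 promoters (0.0761%). The cyclic AMP response element lay 45 to 38 bases before the Th start, again in 1 of the 10 genes, and in 508 promoters (1.55%). TAAT was in 3 places of the Dbh promoter, at 157 to 154, 147 to 144 and 65 to 62 bases before the start. TAAT is so short that 18041 promoters held it (54.9%), among them those of 6 of the 10 genes. The motifs do not overlap each other in these promoters, and a match in this window is a description of letters.

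The libraries held 103383215, 94155624 and 113402193 UMIs in order of stage. Of 6334, 6201 and 7594 barcodes with at least 4000 UMIs, the neuron gate took 1893 (29.9%), 1886 (30.4%) and 822 (10.8%), with median depths of 10248, 8466.5 and 7537 UMIs. Just inside the gate, with exactly 2 UMIs of Elavl3 and Stmn2, were 222, 164 and 131 cells, and just outside it, with 1, were 741, 582 and 547. All 9 neuron markers (Tubb3, Elavl4, Dcx, Snap25, Nefl, Ina, Gap43, Nhlh2 and Myt1l) were higher inside the gate than outside at every stage, yet their summed level inside it was 6209, 5428 and 2544 UMIs per 1000000 UMIs of the same cells (CPM). The gate also held cells with markers of another lineage (collagen-rich mesenchyme, muscle, endothelium, macrophage or blood): 202 cells (10.7%), 281 (14.9%) and 342 (41.6%) over the 3 stages. The 6 mesenchyme markers summed to 254, 852 and 5018 CPM in the gate, and to 20.1, 36.2 and 119 CPM once those cells were left out, with 1691, 1605 and 480 cells kept. Levels are therefore given for all gated neurons and, where it matters, for the neurons without other-lineage markers, a subset chosen after seeing the data. The 6 neural progenitor markers summed to 948, 905 and 306 CPM in the gate and to 938, 985 and 326 CPM outside it. In the subset they summed to 1041, 1083 and 472 CPM. Cells with 2 to 5 UMIs of Elavl3 and Stmn2 held them at 2567, 2761 and 452 CPM. Those with 6 or more held them at 319, 426 and 163 CPM. Both sets thus include cells with progenitor markers, and their part in the levels and shares below was not tested. Doublets were called in 119, 98 and 61 gated neurons and kept. Xist, the transcript of the inactive X chromosome of females, was detected in 69.5, 30.5 and 96.4% of gated neurons and Y-linked genes in 27.5, 54.5 and 2.80%.

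Neuron classes were set by UMIs of transcription factors, and each class is called by those factors. The factors are known to mark motor neurons (Mnx1 with Isl1 or Isl2), dorsal root ganglion sensory neurons (Pou4f1 and Isl with a sensory factor), dorsal commissural neurons (Barhl1, Barhl2, Lhx2 and Lhx9), dorsal excitatory neurons (Tlx3 with Lmx1b), inhibitory interneurons (Pax2 with Lhx1 or Lhx5), ventral excitatory neurons (Evx1 and Evx2) and autonomic neurons (Phox2a and Hand2). The gate of the Phox2a Hand2 class summed these UMIs with those of a further factor that is not reported here. Over the 3 stages 990, 1032 and 334 neurons were in 1 class only, while 806, 813 and 483 were in no class. A further 97, 41 and 5 met several gates and were left out of every class. In all, 18 class and stage sums had at least 20 cells, and 1 of them, set by a factor not reported here, is left out of the levels that follow. The Tlx3 Lmx1b class held 38, 307 and 172 cells over the 3 stages, whereas the Mnx1 Isl class held 70, 9 and 0 cells and the Barhl Lhx2 Lhx9 class 227, 58 and 7. Markers not used in the gates were raised in the Mnx1 Isl class (4 of 4, Lhx3, Lhx4, Foxp1 and Prph), the Tlx3 Lmx1b class (3 of 3, Drgx, Lbx1 and Pou4f1) and the Pax2 class (3 of 5 at each stage). Such markers were raised in part in the Evx class (1 of 3), the Pou4f1 Isl class (2 of 4 at E11.5 and at E12.5) and the E11.5 Phox2a Hand2 class (2 of 5). The Barhl Lhx2 Lhx9 class had only 2 such markers, with 1 raised at E11.5 and 0 at E12.5. The Gata2 Gata3 Tal1 class stays without a neuron name, because none of its 2 further markers was raised and endothelial genes such as Gja5, Cldn5, Pecam1 and Tek were among its leading genes. At E13.5 the myeloid genes Lgals3, Lyz2 and Ncf4 were among the 10 leading genes of the Tlx3 Lmx1b class.

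**Figure D1:**
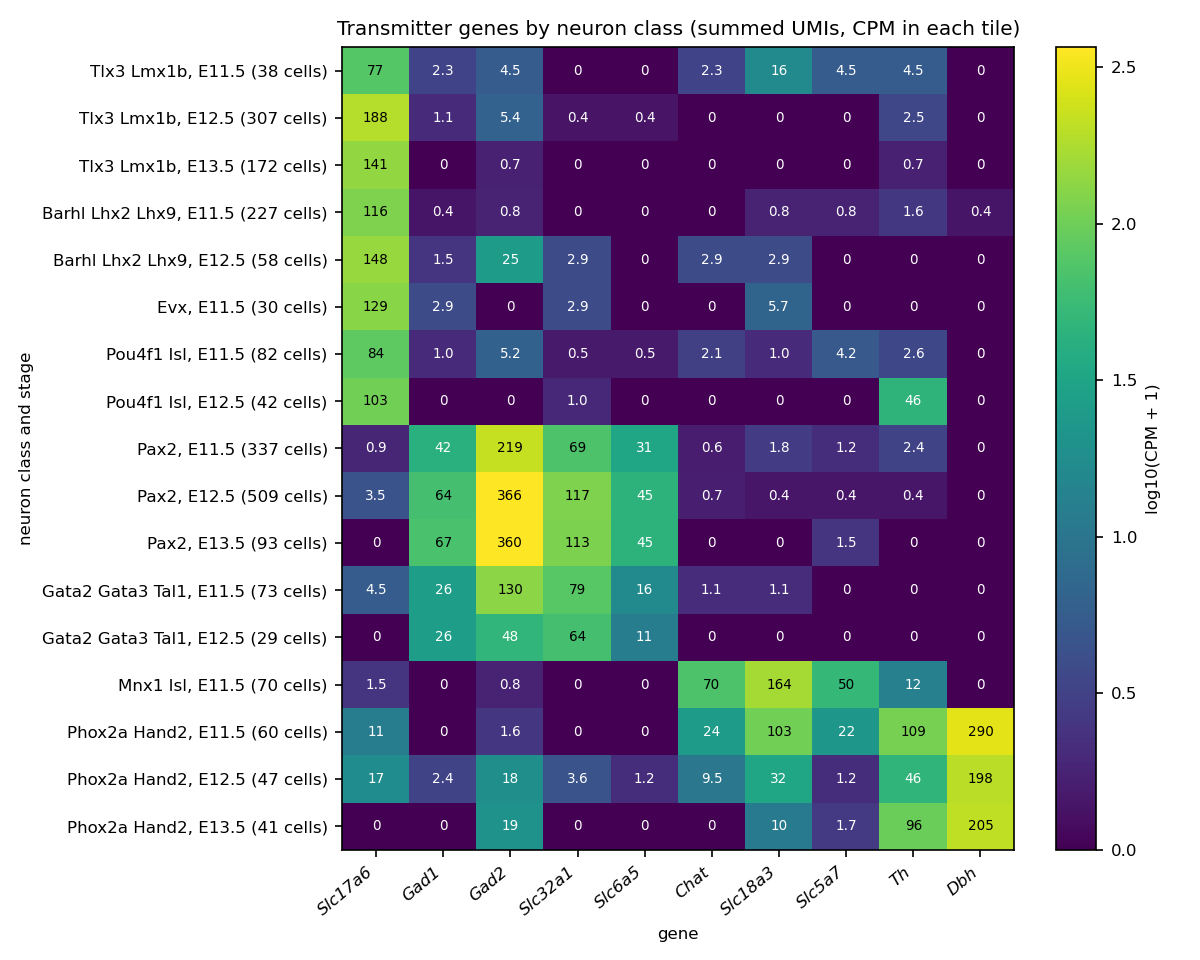
Level of each transmitter gene (columns) in each neuron class and stage with at least 20 cells (rows), as CPM of summed UMIs; tile colour is log10(CPM + 1) and the number in a tile is the CPM. Slc17a6 fills the Tlx3 Lmx1b, Barhl, Evx and Pou4f1 rows, the 4 inhibitory genes fill the Pax2 and Gata2 Gata3 Tal1 rows, and Dbh is above 100 CPM in the Phox2a Hand2 rows alone.

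Slc17a6 was spread over 4 of the classes described here. At E11.5 it stood at 129 CPM in the Evx class (95% interval 94.0 to 172) and 116 in the Barhl Lhx2 Lhx9 class (103 to 130). It stood at 84.3 in the Pou4f1 Isl class (71.8 to 98.4) and 76.7 in the Tlx3 Lmx1b class (53.1 to 107). Neighbours in this order overlapped in their intervals, except for the Barhl Lhx2 Lhx9 class and the Pou4f1 Isl class next to it. Below them came the Phox2a Hand2 class with 11.01 CPM and the Mnx1 Isl and Pax2 classes with 1.501 and 0.884. At E12.5 the order had changed: the Tlx3 Lmx1b class was at 188 CPM (172 to 204), the Barhl Lhx2 Lhx9 class at 148 (120 to 179) and the Pou4f1 Isl class at 103 (84.3 to 125). Neighbours again overlapped in their intervals, and the first and last of these 3 did not. Within the Tlx3 Lmx1b class Slc17a6 was thus at 76.7, 188 and 141 CPM at the 3 stages. Its log2 ratio was 1.29 for E12.5 over E11.5 (0.79 to 1.84), where 15.4% of 9423 genes passed 2-fold in that class, and -0.42 for E13.5 over E12.5 (-0.66 to -0.17), where 11.4% did. Without other-lineage cells the E13.5 over E12.5 ratio was -0.10 (-0.36 to 0.15). In the Barhl Lhx2 Lhx9 class, where 17.0% of genes passed 2-fold, the ratio of 0.35 (0.01 to 0.68) did not.

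The source of the Slc17a6 molecules shifted with these cell numbers. At E11.5 the Barhl Lhx2 Lhx9 class held 25.2% of the 1152 Slc17a6 UMIs in neurons and the Pou4f1 Isl class 14.0%. The Tlx3 Lmx1b class held 40.1% of 1308 UMIs at E12.5 and 47.1% of 410 at E13.5. Cells in no class held 22.0, 31.3 and 47.3% of them.

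Gad1, Gad2 and Slc6a5 were highest in the Pax2 class among the class sums with at least 20 cells. Gad2 stood at 219, 366 and 360 CPM in that class over the stages, and was detected in 69.7, 84.9 and 81.7% of its cells. Gad1 stood at 41.9, 63.7 and 66.8 CPM, Slc32a1 at 69.3, 117 and 113, and Slc6a5 at 31.2, 44.6 and 45.0. The order of Slc32a1 was less clear: at E11.5 it was at 69.3 CPM in the Pax2 class (60.7 to 78.7) and 79.0 in the Gata2 Gata3 Tal1 class (61.6 to 99.9), and without other-lineage cells at 76.6 (67.0 to 87.3) and 115 (89.6 to 145). At E12.5 it was higher in the Pax2 class, at 117 CPM (107 to 127), than in the Gata2 Gata3 Tal1 class, at 63.5 (42.5 to 91.2), but the intervals overlapped without other-lineage cells. All 4 inhibitory genes were higher at E12.5 than at E11.5, by log2 ratios of 0.51 to 0.75, and none reached 2-fold, where 14.2% of 11575 genes did. For E13.5 over E12.5 the 4 ratios lay between -0.04 and 0.07, each with an interval around 0, where 14.0% of genes passed 2-fold. The CPM of the inhibitory genes in the Pax2 class thus differed little between the later stages, and without other-lineage cells those ratios lay between -0.02 and 0.11.

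The Pax2 class was not uniform in Gad2. At E12.5 Gad2 was at 429 CPM (405 to 453) in its 342 cells with Lbx1 and no En1, 287 (258 to 319) in 140 cells with neither factor, and 153 (118 to 194) in 27 cells with En1. En1 is known to mark ventral and Lbx1 dorsal interneurons. At E11.5 the 3 values were 268, 161 and 200 CPM, so the cells with En1 were not the lowest there. This split was chosen after seeing the data.

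The share of Gad1 in the Gad1 and Gad2 UMIs of the Pax2 class had overlapping intervals at all 3 stages. Gad1 made up 16.0% of the UMIs of the pair in the Pax2 class at the first stage (13.7 to 18.6), 14.8% a day later (13.3 to 16.5) and 15.6% at the last (11.7 to 20.3). These shares set the genes' counts against each other within a library and are not levels per transcript length. Slc6a5 made up 31.1, 27.7 and 28.4% of Slc6a5 and Slc32a1 UMIs in the Pax2 class. In the Gata2 Gata3 Tal1 class it made up 16.7% at E11.5 (9.42 to 26.4) and 14.7% at E12.5 (4.95 to 31.1). The E11.5 interval there just overlapped that of the Pax2 class (26.2 to 36.3). Glycine transporter and GABA enzyme messages were found in the same cells: after thinning to 4000 UMIs, 72 of 86 Pax2 class cells with Slc6a5 at E12.5 also held Gad2 (83.7%, 74.2 to 90.8), against 282 of 423 cells without Slc6a5 (66.7%, 62.0 to 71.1).

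In the Gata2 Gata3 Tal1 class Gad2 stood at 130 CPM at E11.5 and 48.2 at E12.5, a log2 ratio of -1.43 (-2.16 to -0.76), where 12.1% of 7393 genes passed 2-fold and 5.46% were lower. Slc32a1 stood at 79.0 and 63.5 CPM and Gad1 at 26.0 and 26.3, both within 2-fold. Endothelial genes were among the leading genes of this class, as given above; without cells carrying other-lineage markers Gad2 was at 189 and 71.8 CPM and its ratio was -1.39 (-2.12 to -0.73).

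Between the Pax2 and Tlx3 Lmx1b classes the transmitter genes were nearly exclusive. At E12.5 Gad2 was at 366 CPM in the Pax2 class and 5.36 in the Tlx3 Lmx1b class, a log2 ratio of 6.09 (5.37 to 6.93). Slc17a6 was at 3.48 CPM in the Pax2 class and 188 in the Tlx3 Lmx1b class, a log2 ratio of -5.75 (-6.57 to -5.04). The other 3 inhibitory genes had log2 ratios of 5.89 to 8.35, so 4 members were at least 2-fold higher and 1 lower, where 8.86% of 11469 genes passed 2-fold, 6.36% higher and 2.5% lower. The same 4 and 1 passed at E11.5, where 13.3% of genes did (9.85% higher and 3.46% lower), and at E13.5, where 10.2% did (4.0% higher and 6.2% lower). At E13.5 Slc17a6 had 0 UMIs in the Pax2 class and was at least 32.3-fold lower there than in the Tlx3 Lmx1b class, and Slc32a1 had 0 UMIs in the Tlx3 Lmx1b class and was at least 51.7-fold higher in the Pax2 class (bounds at 3 counts in the class at 0). The gates use none of the 10 genes.

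The cholinergic genes were read in few cells and mostly at E11.5. In the 70 cells of the Mnx1 Isl class Chat stood at 69.8 CPM (56.4 to 85.5), Slc18a3 at 164 (143 to 188) and Slc5a7 at 49.5 (38.3 to 63.0). Slc18a3 was detected in 90.0% of those cells, Chat in 65.7% and Slc5a7 in 35.7%. The class held 55.0% of all Chat UMIs in E11.5 neurons, 42.4% of Slc18a3 and 50.8% of Slc5a7. The Mnx1 Isl class had 9 cells at E12.5 and none at E13.5, and in the whole-neuron levels given further on fewer such cells and less RNA per cell cannot be told apart.

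In order of level among the classes described here, Chat, Slc18a3 and Slc5a7 were each highest in the Mnx1 Isl class and next in the E11.5 Phox2a Hand2 class (24.4, 103 and 22.0 CPM), with no overlap of intervals between these neighbours. In the Phox2a Hand2 over the Mnx1 Isl class, Chat and Slc5a7 were lower by log2 ratios of -1.52 and -1.17, Slc18a3 was within 2-fold (-0.67, -0.997 to -0.355), Th was higher (3.18) and Dbh at least 129-fold higher, where 16.7% of 9398 genes passed 2-fold (11.7% higher and 5.01% lower). Slc18a3 lies wholly inside the Chat gene on the same strand in the GENCODE vM21 annotation (GRCm38), and the sources used here do not say how reads of the shared region were assigned, so the split between the pair is uncertain.

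Dbh was read almost only in the Phox2a Hand2 class, which held 99.7, 97.1 and 97.5% of its UMIs in neurons at the 3 stages. Its level there was 290 CPM (261 to 321), 198 (169 to 230) and 205 (170 to 246) over the stages, in 60, 47 and 41 cells. Th stood at 109, 46.3 and 95.6 CPM in the same cells. The Th log2 ratios were -1.23 (-1.78 to -0.71) for E12.5 over E11.5 and 1.05 (0.43 to 1.68) for E13.5 over E12.5, where 9.16% of 9074 genes (5.01% lower) and 11.0% of 7721 genes (3.98% higher and 7.03% lower) passed 2-fold in this class. The E13.5 value rests on 1 cell: it held 32 of the 55 Th UMIs, and without it Th was at 41.5 CPM (26.3 to 62.2), close to the E12.5 level. Slc18a3 in this class stood at 103, 32.0 and 10.4 CPM, and Chat at 24.4, 9.49 and 0. Slc18a3 was lower at each step, by log2 ratios of -1.69 (-2.34 to -1.08) and -1.62 (-3.18 to -0.31).

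The Phox2a Hand2 class held cells of different kinds at E11.5, which a split by Hand2 detection, chosen after seeing the data, set apart. Hand2 is known to be needed for noradrenergic differentiation of sympathetic neurons and is also read in mesenchyme. Of the 34 E11.5 cells with Hand2, 19 were free of other-lineage markers, and in these Dbh was at 918 CPM (822 to 1023), Th at 314 (259 to 378) and Slc18a3 at 103 (72.5 to 142). The 26 cells without Hand2 had no Dbh UMI, Th at 5.66 CPM and Slc18a3 at 138 (108 to 173). Among those 26, the 16 with Nkx6-1 or a further factor that is not reported here held every Chat, Slc18a3 and Slc5a7 UMI. The other 10, with neither factor, held all 14 Slc17a6 UMIs (98.3 CPM). The split summed the UMIs of both factors and does not rest on Nkx6-1 alone. Nkx6-1 is known from progenitors and neurons of the ventral neural tube. The later stages had 4 and 3 cells of the class without Hand2, none with an Nkx6-1 UMI.

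**Figure D2:**
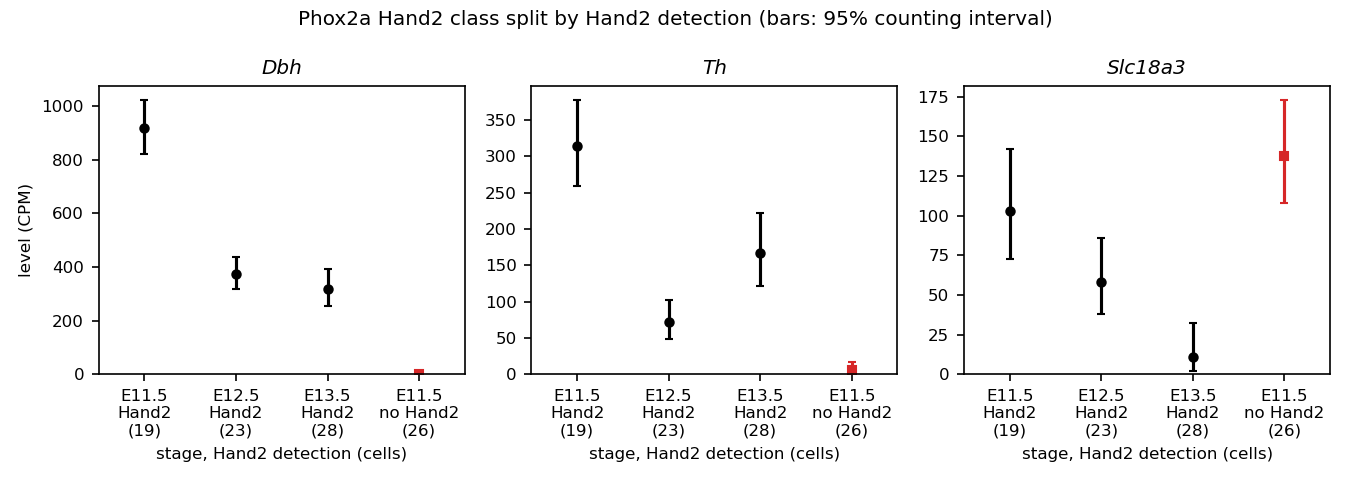
Level of Dbh, Th and Slc18a3 (CPM, with 95% counting intervals) in Phox2a Hand2 class cells with Hand2 and without other-lineage markers at the 3 stages (circles), and in E11.5 cells without Hand2 (squares); cell numbers stand in brackets under the axis. Dbh and Th are near 0 in the cells without Hand2, where Slc18a3 is at 138 CPM.

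In the cells with Hand2 and without other-lineage markers Dbh was at 918, 374 and 318 CPM, Slc18a3 at 103, 58.4 and 11.1 CPM and Chat at 22.3, 18.7 and 0 CPM over the 3 stages, in 19, 23 and 28 cells. Some single cells carried genes of both transmitters. Before thinning, 11 of 17, 13 of 22 and 2 of 27 cells with Dbh also held a cholinergic gene. Median depth in these cells was 20150, 18903 and 9118 UMIs, and after thinning to 4000 UMIs the counts were 3 of 15 (20.0%, 4.33 to 48.1), 3 of 16 (18.8%, 4.05 to 45.6) and 1 of 20 (5.00%, 0.127 to 24.9). The thinned intervals overlap, so a difference between stages was not detectable at this depth. Th was found with Dbh in 16, 11 and 8 of the cells with Dbh before thinning.

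Th was also read in sensory neurons. In the Pou4f1 Isl class it stood at 2.62 CPM at E11.5 (5 UMIs in 5 of 82 cells) and 45.6 CPM at E12.5 (46 UMIs in 12 of 42 cells), a log2 ratio of 4.12 (2.80 to 5.81), where 9.5% of 9172 genes passed 2-fold and 4.43% were higher. Without other-lineage cells the ratio was 3.84 (2.49 to 5.55). The class had 0 Dbh UMIs at both stages. At E12.5 it held 41.8% of all Th UMIs in neurons, above the 35.5% in the Phox2a Hand2 class, and the log2 ratio of Th in the Pou4f1 Isl over the Phox2a Hand2 class was -0.02 (-0.67 to 0.63), where 23.1% of 8496 genes passed 2-fold. There Slc17a6 was higher by 2.64 (1.82 to 3.56), and Dbh was at least 66.5-fold and Slc18a3 at least 10.8-fold lower. No cell of the class at E12.5 had a Hand2 UMI. The 12 cells with Th had Slc17a6 at 150 CPM (119 to 186) and the 30 cells without Th had it at 50.7 (32.5 to 75.5), but the cells with Th were also deeper, with a median of 26286.5 UMIs against 14368. After thinning to 4000 UMIs a cell, the Slc17a6 intervals of these groups overlapped (72.0 to 328 and 9.08 to 85.3 CPM), and when Th detection too was read after thinning, 3 cells with Th and 39 without stood at 83.3 and 70.5 CPM. A difference in Slc17a6 was therefore not detectable at matched depth. Runx1 was at 131 CPM in the cells with Th and 4.23 in those without, and Runx3 at 97.2 and 0. They were read in 7 and 8 of the 12 cells with Th and in 2 and 0 of the 30 without. These 2 genes were not read at matched depth. Runx1 and Runx3 are part of the gate, the split was chosen after seeing the data, and 1 cell held 11 of the 46 Th UMIs.

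Over all gated neurons, the inhibitory genes were highest at E12.5 and the cholinergic genes at E11.5. Gad2 stood at 39.3, 114 and 58.8 CPM over the stages, and Gad1 at 8.11, 20.3 and 9.32. Slc32a1 stood at 14.7, 36.9 and 14.6 CPM and Slc6a5 at 5.58, 13.6 and 5.81. Slc17a6 stood at 46.2, 64.8 and 49.6 CPM. Slc17a6, too, was highest at E12.5 in all gated neurons, but at E13.5 without other-lineage cells (113 CPM). Chat stood at 6.78, 1.54 and 0 CPM, Slc18a3 at 20.8, 4.61 and 0.848, and Slc5a7 at 5.22, 2.18 and 0.605, so the cholinergic genes were lower at each later stage. Th stood at 8.43, 5.45 and 7.63 CPM and Dbh at 14.9, 8.53 and 14.6.

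For E12.5 over E11.5, 4 of the 10 members were at least 2-fold higher and 3 lower, where 13.2% of 15343 genes passed 2-fold (8.94% higher and 4.22% lower). The 4 higher were Gad2 (log2 ratio 1.53, 1.42 to 1.64), Slc32a1 (1.33), Gad1 (1.32) and Slc6a5 (1.29). The 3 lower were Slc18a3 (-2.17, -2.50 to -1.85), Chat (-2.14) and Slc5a7 (-1.26). Slc17a6 (0.49), Th (-0.63) and Dbh (-0.80) were within 2-fold. The same 7 members passed, in the same directions, without other-lineage cells, where 13.6% of 14345 genes did (7.47% higher and 6.17% lower). With only the neurons that had Xist and lacked Y-linked UMIs, 3 members were higher and 2 lower: Slc6a5 (0.95) and Slc5a7 (-0.01) were within 2-fold, and Th (0.24) and Dbh (0.18) changed sign within 2-fold. The share of neurons in the Pax2 class was 17.8% at E11.5 and 27.0% at E12.5, and that in the Mnx1 Isl class 3.70 and 0.477%, and their part in these ratios was not tested.

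For E13.5 over E12.5, a comparison that shares the E12.5 library, none of the 10 members was at least 2-fold higher and 6 were lower, where 18.1% of 14803 genes passed 2-fold (11.2% higher and 6.95% lower). Chat, with 0 UMIs at E13.5, was at least 4.23-fold lower (bound at 3 counts in the E13.5 neurons). Slc18a3 had a log2 ratio of -2.44 (-3.80 to -1.34), Slc5a7 of -1.85 (-3.54 to -0.52), and Slc32a1, Slc6a5 and Gad1 of -1.33, -1.23 and -1.12. These ratios changed when cells with other-lineage markers were left out, which took 41.6% of the E13.5 neurons. Slc17a6 turned direction, with a ratio of -0.39 (-0.55 to -0.22) in all gated neurons and 0.52 (0.34 to 0.69) without those cells, and it then stood at 53.5, 78.5 and 113 CPM over the stages. Gad1, Gad2, Slc32a1 and Slc6a5 then lay within 2-fold, with ratios of -0.58 to -0.38. Th (1.39, 0.86 to 1.90) and Dbh (1.33, 0.95 to 1.71) were then at least 2-fold higher, and Chat, Slc18a3 and Slc5a7 remained at least 2-fold lower, where 10.2% of 13250 genes passed (3.58% higher and 6.65% lower). The Th value again holds the cell with 32 UMIs: without that cell, Th was not at least 2-fold higher, with a log2 ratio of -0.03 (-0.82 to 0.70) without other-lineage cells and -0.54 (-1.16 to 0.05) in all gated neurons. In all gated neurons with that cell kept, the ratios were 0.48 for Th and 0.78 for Dbh. Among those that had Xist and lacked Y-linked UMIs they were -0.27 and 0.16, so neither gene was at least 2-fold higher there.

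**Figure D3:**
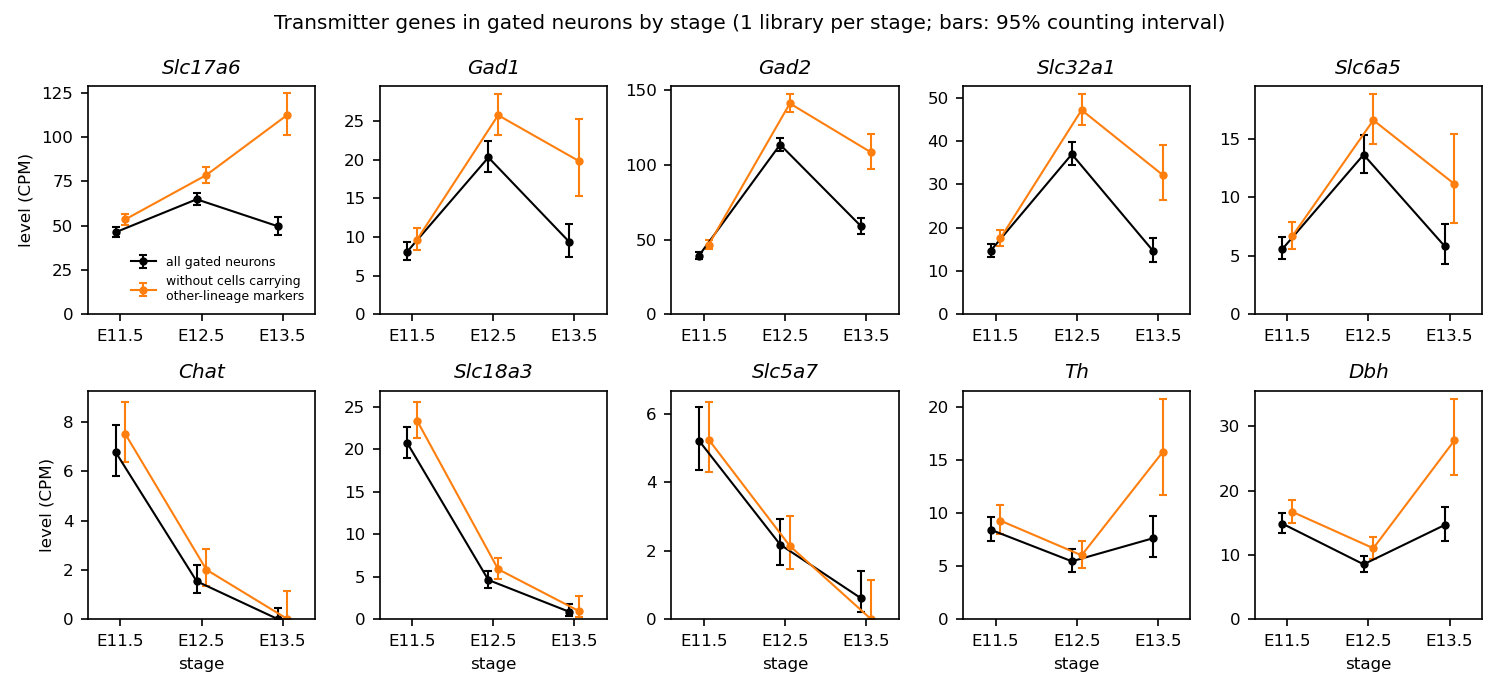
Level of each of the 10 genes (CPM of summed UMIs, with 95% counting intervals) by stage, in all gated neurons (black) and without cells carrying other-lineage markers (orange). The 2 sets lie close at E11.5 and part at E13.5, where Slc17a6 is at 49.6 CPM in all gated neurons and 113 CPM without those cells.

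Counted by cell, after thinning every cell to 4000 UMIs, Slc17a6 was detected in 11.6, 17.0 and 18.4% of gated neurons over the 3 stages, and any of the 4 inhibitory genes in 16.6, 32.2 and 18.7%. A cholinergic gene was detected in 5.23, 1.22 and 0.243% and Th or Dbh in 2.01, 1.96 and 3.65%. In macrophages and red cells, which should lack these genes, the inhibitory and cholinergic shares were 0 at E11.5 and E12.5, where 202 red cells allow up to 1.49% and 88 macrophages up to 3.41% at E12.5. What a share of 0 allows is taken at 3 cells, not as an exact interval, and is set by the number of cells read. At E13.5 each was detected in 1 of 317 macrophages (0.315%, 0.00799 to 1.74) and in 0 of 544 red cells, which allows up to 0.551%. The median depths of macrophages were 21365, 19138 and 12477 UMIs before thinning, and those of red cells 25616, 17978.5 and 11109. The cholinergic share of neurons at E13.5 was below that of macrophages and is not read as expression, and that at E12.5 (1.22%, 0.775 to 1.82) was below the share that 0 of 202 red cells allows. Before thinning, however, 272 macrophage or red cells at E12.5 held 0 UMIs of Chat, Slc18a3 and Slc5a7. In E12.5 neurons 45 of the 93 Slc18a3 UMIs were in 8 cells of the Mnx1 Isl class. In mesenchymal cells the inhibitory share was 0.539, 1.26 and 0.927% and the cholinergic share 0.593, 0.868 and 0.768%, at median depths of 14144.5, 11941 and 9915 UMIs before thinning. Glutamate and noradrenergic shares in mesenchyme were at most 0.118%. The cholinergic share of mesenchymal cells was mostly Slc5a7: at E12.5, before thinning, 63 of 2534 cells held Slc5a7, 2 held Chat and 1 held Slc18a3. Without other-lineage cells the glutamate share was 12.7, 18.9 and 29.2%, and the inhibitory share 18.2, 35.7 and 25.4%.

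**Figure D4:**
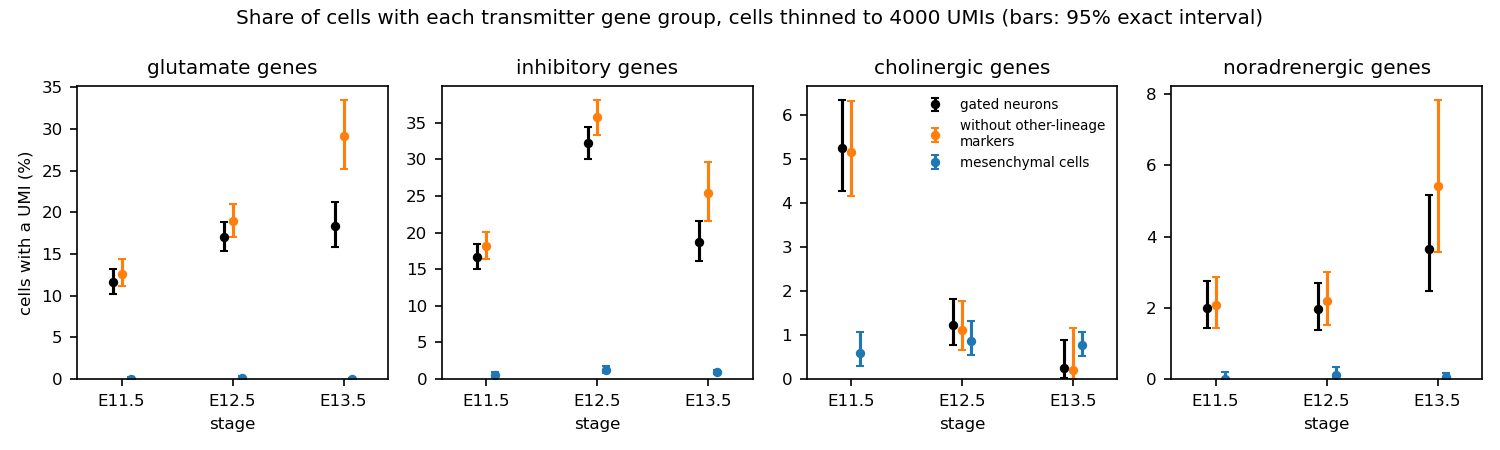
Share of cells (%) with at least 1 UMI of each transmitter gene group after thinning to 4000 UMIs, by stage, with exact 95% intervals, in gated neurons (black), neurons without other-lineage markers (orange) and mesenchymal cells (blue). The glutamate and inhibitory shares of neurons stand clear of mesenchyme at every stage, and the cholinergic share does so at E11.5 alone.

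Glutamate and inhibitory genes rarely met in a cell. Both were detected in 2 of 1893, 9 of 1886 and 2 of 822 thinned neurons over the stages, where 36.6, 103 and 28.3 cells would hold both if detection were independent. Without called doublets the E12.5 count was 8. Glutamate and cholinergic genes met in 11 cells at E11.5, where 11.51 would under independence. Cholinergic and noradrenergic genes met in 7 cells at E11.5, where 1.99 would. None of the 4 groups was detected in 66.0, 49.2 and 59.9% of thinned neurons, and before thinning in 49.3, 35.6 and 45.5%.

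Slc17a6 was lowest in the cells of a class with least of the genes of maturing neurons. The cells of a class, without those carrying other-lineage markers, were ranked by the summed share of Nefl, Ina, Snap25 and Gap43, genes of maturing neurons, and cut into 3 equal groups, a split chosen after seeing the data. In the Barhl Lhx2 Lhx9 class at E11.5 Slc17a6 had 8 UMIs in the lowest group (5.40 to 24.6 CPM), and stood at 145 CPM (118 to 175) in the middle and 264 (224 to 308) in the highest, and Sox2, a progenitor gene, was detected in 42.6, 8.82 and 2.99% of the cells. In the Tlx3 Lmx1b class it had 0, 7 and 21 UMIs at E11.5, in 12, 11 and 11 cells, and stood at 71.4, 251 and 263 CPM at E12.5 and 97.8, 209 and 261 CPM at E13.5. At E12.5 and E13.5 the middle and highest groups of that class overlapped in their intervals. Gad2 in the Pax2 class followed this at E11.5 in part, with 130, 320 and 267 CPM, and at E12.5 it was 397, 456 and 344 CPM, lowest in the highest group. Gad1 in the same E11.5 cells stood at 21.4, 47.3 and 67.3 CPM and Slc32a1 at 36.3, 83.3 and 107. In the Barhl Lhx2 Lhx9 class at E12.5 the 3 groups, at 141, 200 and 157 CPM, overlapped in their intervals.

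**Figure D5:**
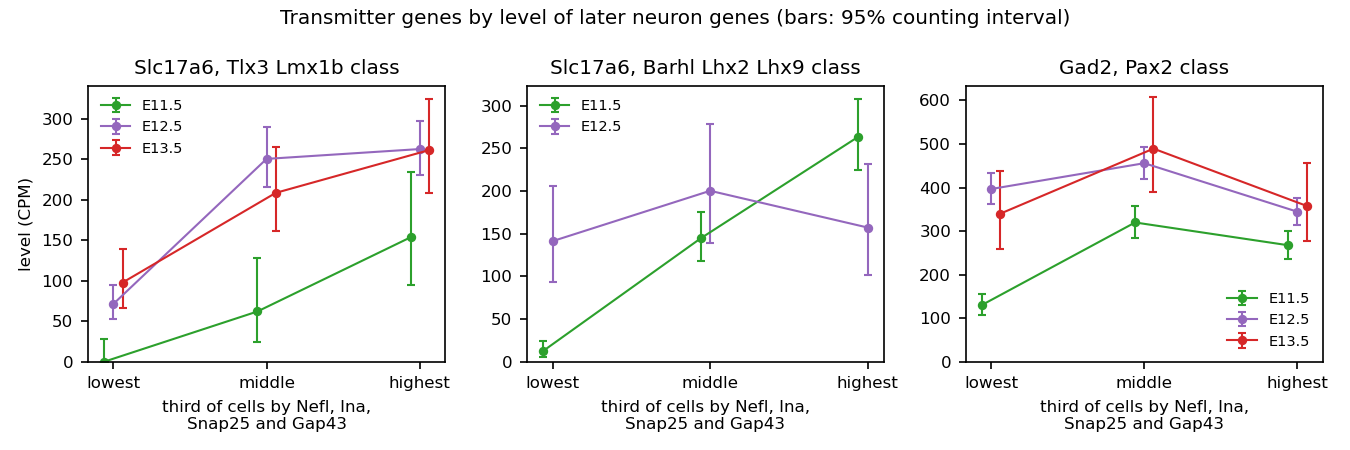
Level (CPM, with 95% counting intervals) of Slc17a6 in the Tlx3 Lmx1b and Barhl Lhx2 Lhx9 classes and of Gad2 in the Pax2 class, in 3 equal groups of cells ordered by Nefl, Ina, Snap25 and Gap43, without cells carrying other-lineage markers. Slc17a6 at E11.5 goes up across the groups in both classes, while Gad2 at E12.5 is lowest in the highest group.

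Other genes of the same pathways were read from lists, and those named here are the list members with the largest ratios or levels. The counts below stand beside 8.94% of all genes higher and 4.22% lower at E12.5 than at E11.5, and 11.2% higher and 6.95% lower at E13.5 than at E12.5. Without other-lineage cells these shares were 7.47 and 6.17%, and then 3.58 and 6.65%. Of the 7 glutamate genes with enough UMIs, 1 was at least 2-fold higher and 1 lower at E12.5 than at E11.5, where the median log2 ratio of the list was 0.13 and that of all genes 0.10. Slc17a7, another vesicular glutamate transporter, was at 3.21, 0.644 and 0.242 CPM over the stages, and its highest class level was 23.0 CPM in the Pou4f1 Isl class at E11.5. Slc1a1, a glutamate uptake transporter, was at 1.44, 14.5 and 7.39 CPM, with its highest class level, 33.3 CPM, in the Pax2 class at E12.5. So the glutamate gene that was higher was found most in the inhibitory class. For E13.5 over E12.5 none of 5 tested glutamate genes passed.

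Of the 7 GABA and glycine genes tested, 3 were higher and 1 lower at E12.5 than at E11.5, with a median log2 ratio of 0.9997, where 8.94% of all genes were higher and 4.22% lower. Abat, which breaks GABA down, was at 29.7, 70.0 and 50.6 CPM over the stages, and at 32.1, 83.6 and 90.6 CPM without other-lineage cells, where its E13.5 over E12.5 direction turned. Gldc, of the glycine cleavage system, was at 14.5, 4.06 and 2.06 CPM. For E13.5 over E12.5, 1 of 7 was higher and 1 lower, with a median of -0.54, against -0.07 over all genes. The higher of these, Slc6a13, was at 0.843, 1.69 and 4.00 CPM in all gated neurons and at 0.101, 0.267 and 0 without other-lineage cells.

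Of the 7 acetylcholine genes tested, 1 was lower at E12.5 than at E11.5 and 4 were lower at E13.5 than at E12.5, and none was higher in either comparison (median log2 ratios -0.38 and -1.34, against 0.10 and -0.07 over all genes, of which 4.22 and 6.95% were lower). Without other-lineage cells none was lower at E12.5 than at E11.5 and 3 were lower at E13.5 than at E12.5. In that set 6.17 and 6.65% of all genes were lower. The nicotinic receptor subunit genes Chrna3 and Chrna4 were at 50.9, 25.1 and 9.93 CPM and at 24.9, 19.1 and 3.39 CPM. Without other-lineage cells Chrna3 was at 59.1, 31.8 and 22.6 CPM, within 2-fold at each step, and Chrna4 at 29.1, 23.6 and 6.18 CPM. Chrna3 was highest in the Pax2 class at E11.5 (112 CPM), a class nearly free of Chat. Slc10a4, a vesicular protein of cholinergic and monoaminergic neurons, was at 14.1, 8.87 and 2.18 CPM, with 128 CPM in the Mnx1 Isl class.

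Of the 13 catecholamine genes tested, 1 was higher and 1 lower at E12.5 than at E11.5, and 5 were higher and none lower at E13.5 than at E12.5 (median log2 ratios -0.45 and 0.75), where 11.2% of all genes were higher and 6.95% lower in the later comparison. Without other-lineage cells 2 of 13 were higher and 2 lower at E12.5 than at E11.5, and 6 of 11 were higher at E13.5 than at E12.5. In that set 7.47% of all genes were higher and 6.17% lower in the first comparison. In the later one 3.58% were higher and 6.65% lower. Slc18a2, the vesicular monoamine transporter, was at 72.4, 19.0 and 71.3 CPM in the Phox2a Hand2 class over the stages. Gch1, the enzyme of the Th cofactor tetrahydrobiopterin, was at 96.0, 55.7 and 120 CPM there, and Slc6a2, the noradrenaline uptake transporter, at 10.2, 43.9 and 17.4. Slc18a2 and Gch1 were thus lowest at E12.5 in this class. Of the 5 serotonin and histamine genes, only Tph1 had the UMIs to be compared, with 22, 9 and 2 UMIs.

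Of the 15 vesicle and release genes tested, 2 were higher at E12.5 than at E11.5 (Sv2c and Sv2a) and 3 were lower at E13.5 than at E12.5 (Syp, Syt1 and Syn2), where 8.94% of all genes were higher in the first comparison and 6.95% lower in the other. The medians were 0.63 and -0.77. Without other-lineage cells 3 were higher at E12.5 than at E11.5, and none of the 15 passed at E13.5 over E12.5, with a median of -0.19. In that set 7.47% of all genes were higher in the first comparison, and 3.58% higher and 6.65% lower in the other. Syp was then at 30.4, 47.3 and 29.98 CPM and Syn2 at 9.08, 17.6 and 12.4 CPM over the 3 stages. Syt1, the calcium sensor of release, was at 54.4, 91.0 and 44.7 CPM in all gated neurons and at 63.6, 115 and 91.8 without other-lineage cells. Of the 14 neuropeptide genes tested, 6 were higher and none lower at E12.5 than at E11.5, and 5 were higher and 4 lower at E13.5 than at E12.5, with medians of 0.55 and -0.17. Without other-lineage cells 4 of 12 were higher at E12.5 than at E11.5, and 3 were higher and 4 lower at E13.5 than at E12.5. The shares of all genes given above for that set stand beside these counts. Npy was at 15.1, 558 and 92.0 CPM in all gated neurons and at 16.9, 708 and 192 without other-lineage cells, and 8756 of its 11248 UMIs at E12.5 were in the Pax2 class. Cartpt reached 1312 CPM in the Phox2a Hand2 class at E12.5, and Vip was at 6.29, 144 and 170 CPM there over the stages.

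The genes most alike to each member were taken by Pearson correlation of log2(CPM + 1) over the 18 class sums, among 14067 genes. The sums share 3 libraries and differ in depth, and the correlations describe these sums only. Tmem163 was nearest to Slc17a6 (r = 0.97), and Nrn1 (0.94) and Adcyap1 (0.92) followed. Slc32a1 and Gad1 were alike (0.97), and Slc30a3 was nearest to Slc6a5 (0.98) and Gad2 (0.91). Gm14204, which lies 43 bases from Slc32a1 on the opposite strand, was nearest to Slc32a1 (0.98). Gm2990, antisense to Chat with 948 shared bases and 191 bases from Slc18a3, was nearest to both Chat (0.89) and Slc18a3 (0.95). The sources used here do not say whether the counting used strand, so reads of these neighbours cannot be told apart from reads of the member. Mfap3l was nearest to Slc5a7 (0.84) and Cdkl2 to Th (0.90). Gm33293 was among the 3 nearest to Dbh (0.995).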

How the data were processed

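Single-cell RNA libraries were made with the 10x Genomics 3' kit, version 3.1, 1 per stage. The deposited values are whole UMI counts, which the authors did not scale, for each gene in each barcode. Cell Ranger 8.0.1 and the mouse build GRCm39 are named in the submitters' processing notes; no release of the annotation was found in them. The matrices list every barcode.

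Barcodes with at least 4000 UMIs and at least 2 UMIs of Elavl3 and Stmn2 were taken as neurons. No mitochondrial maximum was set and doublets called by scrublet (scanpy 1.11.5) were kept; both were alternatives. UMIs were summed per stage or class and scaled to CPM of all UMIs. Intervals (scipy 1.17.1) are exact Poisson for CPM, Clopper-Pearson for shares and conditional binomial for ratios. No test across stages was possible. Classes needed 20 cells. A fold against 0 UMIs is a bound at 3 counts in that group. The ratio code was tested on simulated data. The upper estimate of free RNA in mesenchymal cells, from neuronal genes, was 3.03, 4.78 and 9.31% by stage. Libraries shared 10, 16 and 12 barcodes of 4000 UMIs, 1 of them a neuron in both.

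Named were the 10 members, the gate factors, of each pathway list up to 4 genes with the largest ratio past 2-fold and the 3 highest, and the 3 genes most alike to each member; the text gives some of these. The members and lists were chosen with earlier results of these data known. Symbols came from the files. Promoters are RefSeq's (GRCm38.p6), and GRCm39 coordinates were not used here. Some genes, and a class set by 1 of them, are not reported here.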

Additional observations from a re-analysis of the deposited data

Results flagged for a closer look

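Transmitter genes were also read outside neurons. In mesenchymal cells, taken by collagen UMIs and outside the neuron gate, Gad2 stood at 4.52 CPM at E12.5, with 155 UMIs in 86 of 2534 cells, and at 3.15 CPM at E13.5, with 159 UMIs in 128 of 4425 cells. Macrophages and red cells of the same libraries held Gad2 at 0.205 and 0.221 CPM, and the upper estimate of what free RNA could add in mesenchymal cells was 1.13 and 0.834 CPM. Slc5a7 stood at 2.54 CPM at E12.5, with 87 UMIs in 63 mesenchymal cells, and at 1.49 CPM at E13.5, with 75 UMIs in 64. It was at 0 UMIs in macrophages and red cells at both stages, and the upper estimate from free RNA was 0.0752 and 0.0408 CPM. All 4 values were picked out because the mesenchymal cells are in none of the comparisons of neurons and stood above the blood cells of their library. Chat, in contrast, had 3 and 1 UMIs in the mesenchymal cells of E12.5 and E13.5.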

How the results depend on the processing

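No member changed from a call in 1 direction to a call in the other under any alternative. With at least 6 gate UMIs the glutamate share was 16.0, 21.4 and 22.1% over the stages and the inhibitory share 22.1, 38.0 and 23.9%, both were detected in 0 cells at E13.5, and 2 members (Th and Dbh) were at least 2-fold higher at E13.5 than at E12.5, with 5 lower in place of 6 (Gad1 at -0.83). The members lower at E13.5 were 7 at a minimum of 6000 UMIs and without called doublets, where Gad2 had log2 ratios of -1.17 and -1.04, and 4 with at least 100 UMIs over the pair. Over all genes 1353, 1064 and 573 were lower in these settings, against 1029 in the main one. With at least 6 gate UMIs 1415 genes were higher and 911 lower, against 1651 and 1029. The number of genes tested in each of these settings is not given here. At a minimum of 6000 UMIs the E13.5 glutamate share was 14.6%. Unthinned, the glutamate shares were 21.1, 25.2 and 26.3%, the inhibitory shares 22.0, 38.5 and 24.9%, and the share with both 0.423% at E11.5 and 1.697% at E12.5. With 2 UMIs needed they were 4.44, 6.95 and 6.20%, 10.4, 23.3 and 11.8%, and 0, 0 and 0 for both. With only the neurons that had Xist and lacked Y-linked UMIs, the share with both was 0 at E12.5. For E12.5 over E11.5, 880 genes were then higher and 558 lower, against 1371 and 648, with 3 members higher and 2 lower in place of 4 and 3. Slc6a5 (0.95) and Slc5a7 (-0.01) were then within 2-fold, and for E13.5 over E12.5 Gad2 (-1.08) passed. In that later comparison Th (-0.27) changed sign and Dbh was at 0.16, both within 2-fold. With at least 100 UMIs over the pair, 679 genes were higher and 366 lower at E12.5 than at E11.5, and 970 and 573 at E13.5 than at E12.5. Leaving out cells with other-lineage markers, an alternative added after seeing the data, gave glutamate shares of 18.9 and 29.2% and inhibitory shares of 35.7 and 25.4% at E12.5 and E13.5. For E13.5 over E12.5, 475 of 13250 genes were then higher (3.58%) and 881 lower (6.65%), with 2 members higher and 3 lower. The cause of these shifts was not tested.

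Of 72 counts of genes or members recomputed, 9 moved, as did 30 of 72 shares, 88 of 240 neuron levels, 71 of 400 class levels and 24 of 151 stage ratios. No paired analysis was possible because each stage had 1 library, and for the same reason no replicate could be left out. At E13.5, 3 counts in the neurons stand for 0.363 CPM.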
